A study of Homo sapiens with 22 samples.

Results

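VGF, the granins and the genes that process and package prohormones are described here in human neuroblastoma cells before and during treatment with the kinase inhibitor PP121 and bufalin. The 10 genes, of 35237 in the deposited count table, are VGF, CHGA, CHGB, SCG2, SCG3, SCG5, PCSK1, PCSK2, PCSK1N and CPE. They were chosen by name as granin family members and prohormone-processing genes, and the measured value behind the choice was the share of all counts that VGF takes in stage 2 of the treatment. That share, and every stage 2 change of VGF, is therefore a description with no test. RNA was sequenced in 22 libraries of SK-N-AS and GIMEN, established neuroblastoma lines that the labels call mesenchymal. SK-N-AS had 4 groups of 4 libraries. Untreated cells grew in DMEM with 10% fetal bovine serum. Stage 1 cells (S1D4) had 5 µM PP121, an inhibitor of tyrosine kinases and phosphoinositide kinases, for 4 days in DMEM with 1% serum. Stage 2 cells had first gone through stage 1 and were then kept in 5 µM PP121 and 100 nM bufalin, a cardiac glycoside that blocks the sodium pump, in Neurobasal medium with B27 supplement. They were taken after 4 days (S2D4) or 30 days (S2D30) of stage 2. GIMEN had 3 untreated libraries, from RPMI with 10% serum, and 3 libraries (D30) from 30 days in 2.5 µM PP121 and 10 nM bufalin in RPMI with 1% serum. Drug changed together with serum or medium in each comparison of treated cells except S2D30 against S2D4. Their parts in those differences cannot be told apart. For S2D4 and S2D30 the labels give the same drugs and medium and different days. The series compares untreated cells with cells driven toward differentiation by these drugs.

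Granins are acidic proteins stored in the dense-core vesicles of neurons and endocrine cells, where they help to form the vesicle and are themselves cut into peptides. Prohormone convertases, encoded by PCSK1 and PCSK2, cut precursors after basic residues as the vesicle matures, and carboxypeptidase E (CPE) then trims the exposed basic residues. SCG5 encodes the chaperone 7B2, which binds the PCSK2 product, and PCSK1N encodes proSAAS, which inhibits the PCSK1 product. Neuroblastoma arises from the sympathoadrenal lineage, whose mature cells store catecholamines together with chromogranins, and CHGA protein in serum is used as a marker of such tumours. VGF is induced by neurotrophins in neuronal cells and is a precursor of several peptides.

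RefSeq promoter windows (GRCh38.p14, 250 bases before to 50 bases after the start) were given for 8 of the 10 genes, in 10 windows; CHGB and SCG2 had none. The 4 windows printed here are those that held TGACGTCA or both parts of the RE1 element that the repressor REST binds (TTCAGCACC and GGACAGC). TGACGTCA is the full cAMP response element that CREB family factors bind. Its core TGACG, held by 24.6% of all windows, was also searched and did not decide which were printed. Both strands were searched, the windows read 5′ to 3′ along the gene, and the capitals mark the matches. VGF lies on the minus strand at chr7:101165520-101165819, CHGA on the plus strand at chr14:92922900-92923199, PCSK1 on the minus strand at chr5:96433199-96433498 and SCG3 on the plus strand at chr15:51681253-51681552.
VGF: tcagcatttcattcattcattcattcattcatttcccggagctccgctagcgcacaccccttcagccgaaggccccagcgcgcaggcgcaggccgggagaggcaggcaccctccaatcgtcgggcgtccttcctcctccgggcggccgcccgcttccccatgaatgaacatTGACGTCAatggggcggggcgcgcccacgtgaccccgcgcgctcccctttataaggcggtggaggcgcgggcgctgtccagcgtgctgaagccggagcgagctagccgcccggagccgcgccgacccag
CHGA: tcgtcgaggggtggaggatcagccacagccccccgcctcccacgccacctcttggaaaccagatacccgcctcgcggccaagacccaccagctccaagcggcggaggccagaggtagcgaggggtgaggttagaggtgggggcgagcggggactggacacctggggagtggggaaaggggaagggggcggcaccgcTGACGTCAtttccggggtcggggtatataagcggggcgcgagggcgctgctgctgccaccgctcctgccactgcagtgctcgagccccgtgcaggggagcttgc
PCSK1: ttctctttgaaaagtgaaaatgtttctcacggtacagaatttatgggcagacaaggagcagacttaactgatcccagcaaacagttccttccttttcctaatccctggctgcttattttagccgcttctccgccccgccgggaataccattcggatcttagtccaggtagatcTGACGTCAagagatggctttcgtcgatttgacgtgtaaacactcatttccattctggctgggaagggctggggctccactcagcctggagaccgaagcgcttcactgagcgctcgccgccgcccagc
SCG3: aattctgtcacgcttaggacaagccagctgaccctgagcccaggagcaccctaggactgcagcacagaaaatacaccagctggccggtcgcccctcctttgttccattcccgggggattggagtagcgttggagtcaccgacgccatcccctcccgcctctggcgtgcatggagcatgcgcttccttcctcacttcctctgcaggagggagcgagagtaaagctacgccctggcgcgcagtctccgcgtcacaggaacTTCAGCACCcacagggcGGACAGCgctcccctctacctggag
TGACGTCA stood once in each of the printed VGF, CHGA and PCSK1 windows, with 71, 46 and 69 bases between it and the start. It stood in none of the other members' windows, and the other PCSK1 window, not printed here, did not hold it. Of all 35116 windows of this length, 1.85% hold TGACGTCA, and 0.0683% hold both RE1 parts as the SCG3 window does. The RE1 search set no order, orientation or spacing of the parts, and in the SCG3 window both lie after the start. A match is a description of letters and was not measured as a binding site. Of the genes with the element, VGF and PCSK1 were called higher in S1D4 and CHGA was not, as given below. A part of the element in these levels was not tested.

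Libraries held 16456484 to 37506800 counts. At these depths the 95% Wilson interval of a member's share of counts was at most 0.0111 percentage points on either side, and 3 counts, taken as the detection floor of a library, corresponded to 0.08 to 0.182 CPM. Levels are CPM, counts scaled by library size, with 1 TMM scaling of all 22 libraries. The labels do not say that replicates were separate cultures, so p-values measure only the spread between these libraries, which may be technical. S2D4 replicate 4 stood apart, with correlations of log2 CPM of 0.967 to 0.969 with the other replicates of its group against at least 0.9898 among those. The untreated and S1D4 libraries of SK-N-AS also differed by replicate, numbers 1 and 2 against 3 and 4, for several of the 10 genes. Each of the 7 mesenchymal markers averaged over 1 CPM in every group. Their summed level was 923 to 1451 CPM in untreated SK-N-AS and 2970 to 3688 CPM in S2D30. In GIMEN it was 37563 to 39145 CPM untreated and 20475 to 23534 CPM in D30. Most of each SK-N-AS sum was VIM, with means of 937 CPM untreated and 2862 CPM in S2D30. Most of each GIMEN sum was FN1, with means of 31491 CPM untreated and 18017 CPM in D30. In S2D30 the means of FN1 and TWIST1 were lower than in untreated cells and those of the other markers higher. In GIMEN D30 the means of CD44 and YAP1 were higher and those of the other markers lower. Sympathoadrenal markers were also present in untreated SK-N-AS (7 of 8 over 1 CPM, HAND2 at 578 CPM), and their sum was 1473 to 1672 CPM there and 177 to 222 CPM in S2D30. TH averaged 0.268 CPM in untreated SK-N-AS, 28.6 CPM in S1D4 and 0.302 CPM in S2D30, and the other markers had lower means in S2D30 than untreated. In GIMEN the sum was 409 to 434 CPM before treatment and 232.5 to 275.1 CPM in D30, with PHOX2A, TH and DDC among those at the floor before treatment. Most of each GIMEN sum was HAND2, with means of 363 CPM untreated and 179 CPM in D30. The means of GATA3 (60.2 to 68.7 CPM) and ISL1 (1.23 to 1.44 CPM) were higher in D30. The T cell marker CD3E had 0 counts in each SK-N-AS library, while PTPRC, also in the leukocyte list of 5, had a mean of 177 CPM in untreated SK-N-AS and 0.85 CPM in S2D30. CD14 and CSF1R, 2 more of that list, had means of 1.34 and 0.259 CPM in untreated SK-N-AS and 3.09 and 1.69 CPM in S2D30. These marker sums moved with the treatment, and their part in the changes below was not tested. In RNA from whole cultures, fewer cells that make a transcript and less of it per cell cannot be told apart.

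VGF was the gene with the most counts in both stage 2 groups. It took 6.18%, 6.49%, 6.41% and 5.30% of all counts in S2D4 replicates 1 to 4 and 3.73%, 3.83%, 3.93% and 3.64% in the S2D30 replicates. The runner-up, IGF2 in S2D4 and the mitochondrial MT-ND2 in S2D30, took a mean of 1.47% and 1.06%. In untreated SK-N-AS the share was 0.0149% to 0.0293%, and in S1D4 it was 1.02% to 1.35%, where MT-CO1, IGF2 and MT-ND4 had higher group means. On the CPM scale the group means were 214 ± 67.2 (SD, n = 4) untreated, 10681 ± 1373 in S1D4, 63230 ± 3299 in S2D4 and 37995 ± 2284 in S2D30. No library of any of these groups overlapped a neighbouring group.

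**Figure D1:**
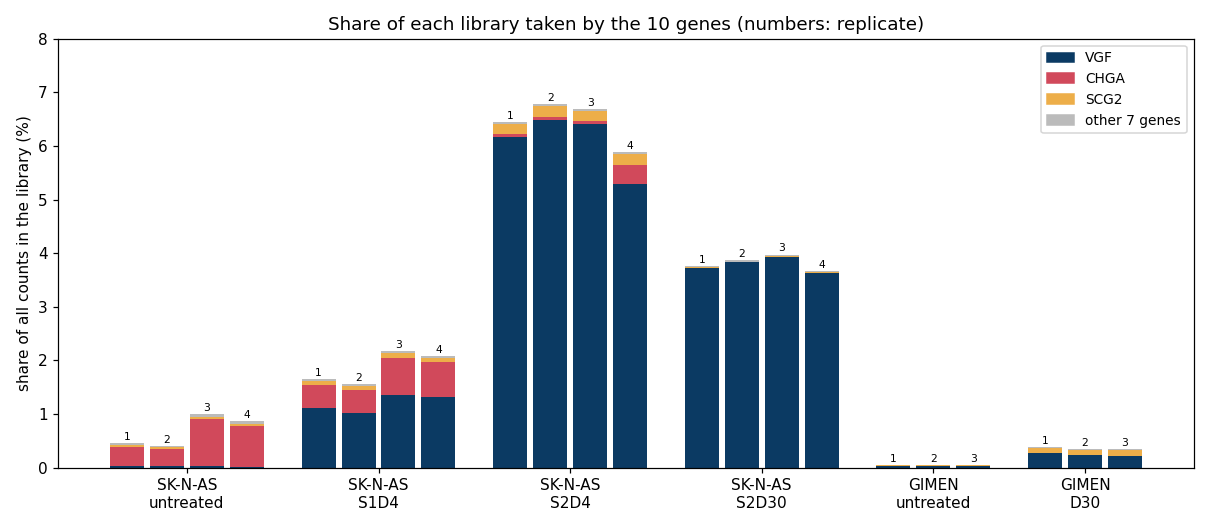
Share of all counts in each library (percent, linear axis from 0) taken by VGF, CHGA, SCG2 and the other 7 genes, stacked, with the replicate number above each bar. VGF makes up nearly all of the bars of S2D4 and S2D30, while CHGA makes up most of the untreated SK-N-AS bars; S2D4 replicate 4 has a visible CHGA part.

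The order of the VGF levels over all 6 groups was S2D4, S2D30, S1D4, GIMEN D30, untreated GIMEN and untreated SK-N-AS, and only the last pair overlapped. The value named in the choice of the genes was the stage 2 share, and VGF was tested in stage 1. It rose from 272, 265, 186 and 131 CPM in the untreated replicates to 9946, 9122, 11984 and 11673 CPM in the S1D4 replicates. The log2 fold change was 5.61 (SE 0.23, edgeR quasi-likelihood adjusted p = 9.88e-11 over all genes). Replicates 1 and 2 were the higher ones without treatment and the lower ones with it, so that the ratio of means was 35.5-fold within replicates 1 and 2 and 74.5-fold within replicates 3 and 4. From S1D4 to S2D4 the level was a further 5.92-fold higher, and from S2D4 to S2D30 it was 1.66-fold lower, both given without a test. Without S2D4 replicate 4 the S2D4 mean was 64692 CPM.

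In GIMEN, VGF rose from 240, 248 and 251 CPM to 3032, 2481 and 2367 CPM (log2 fold change 3.39, SE 0.10, adjusted p = 1.47e-10). The lowest treated library was 9.45-fold above the highest untreated one. The untreated lines had similar levels, 214 ± 67.2 CPM (n = 4) in SK-N-AS and 246 ± 5.33 CPM (n = 3) in GIMEN, and their difference did not pass the test (log2 difference -0.22, SE 0.20, adjusted p = 0.343). The 30-day change of VGF was larger by 4.03 on the log2 scale in SK-N-AS than in GIMEN, which is a description because stage 2 chose the gene.

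The other members did not move as a block with VGF. In S1D4 against untreated cells, 9 members were tested, and 4 rose (VGF, SCG2, SCG3 and PCSK1) while none fell; of all 15810 genes tested, 17.6% rose and 22.4% fell. PCSK1N missed the threshold there at adjusted p = 0.0506 and passed it under 8 alternatives. PCSK2 failed the filter on low counts in each model of SK-N-AS, GIMEN or both lines, and never had more than 7 counts in a library. In S2D4 against untreated cells, 4 of 8 tested members rose (SCG2, SCG3, SCG5 and PCSK1) and 2 fell (CHGA and CPE), where 30.9% of all genes rose and 32.2% fell. In S2D30 against untreated cells, 2 of 8 rose (SCG5 and PCSK1) and 6 fell (CHGA, CHGB, SCG2, SCG3, PCSK1N and CPE), where 33.8% and 36.5% of all genes did. These 3 comparisons share the untreated libraries.

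Neighbouring time points were compared next. In S2D4 against S1D4, 5 of 8 tested members rose (CHGB, SCG2, SCG3, SCG5 and PCSK1) and 3 fell (CHGA, PCSK1N and CPE), beside 28.3% and 26.8% of all genes. In S2D30 against S2D4, 1 of 8 rose (SCG5) and 4 fell (CHGA, CHGB, SCG2 and SCG3), beside 24.4% and 26.9% of all genes; PCSK1, PCSK1N and CPE did not pass the test. Stage 2 was the contrast behind the choice of the genes, and nothing is read from these shares for stage 2. In GIMEN, 6 of 7 tested members rose (VGF, CHGB, SCG2, SCG5, PCSK1 and CPE) and none fell, beside 35.5% and 36% of 13517 genes; CHGA, PCSK2 and PCSK1N failed the filter.

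**Figure D2:**
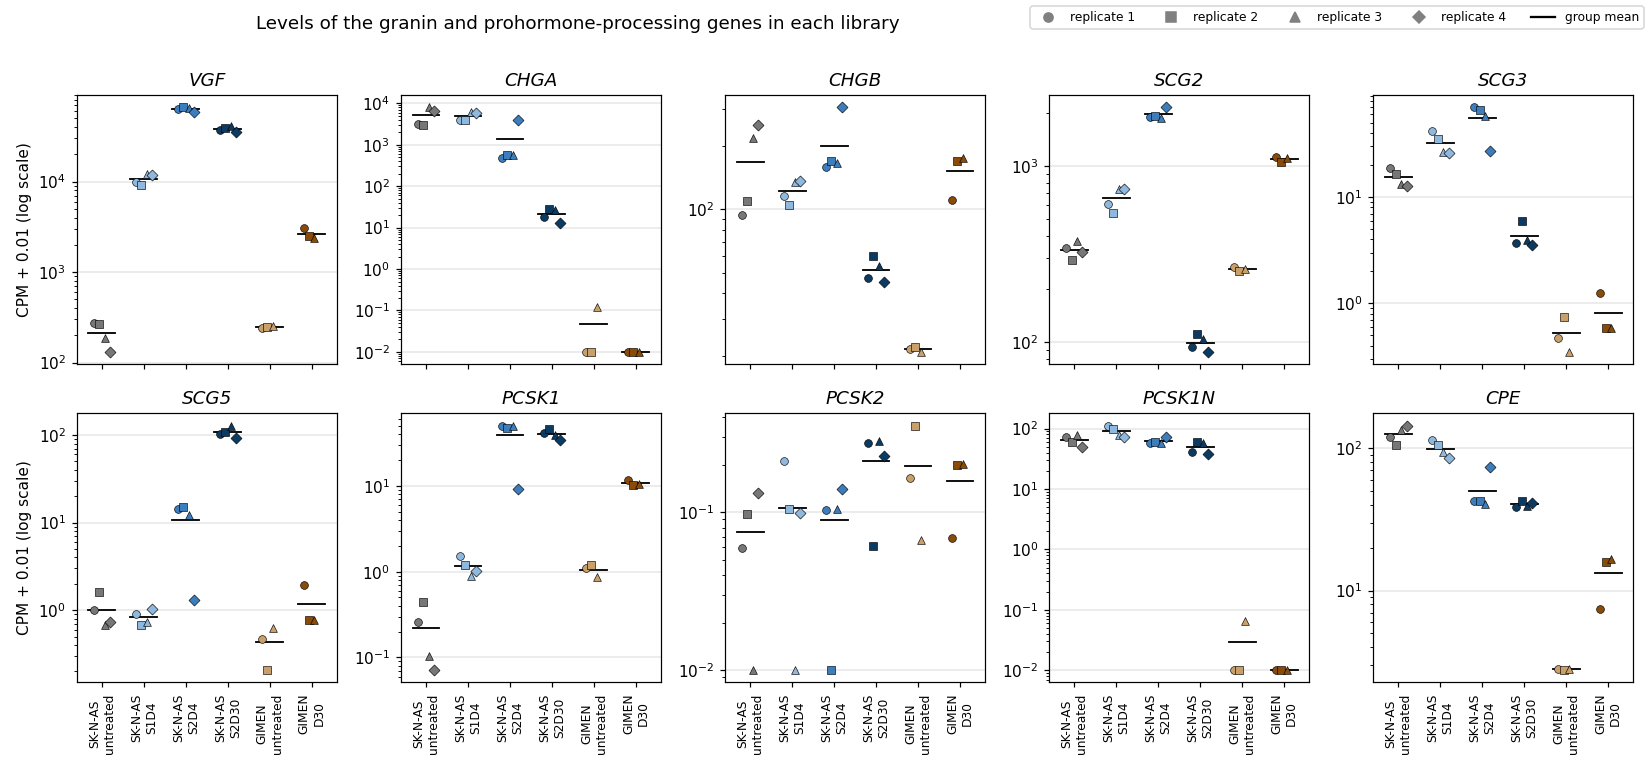
Level of each gene in each library as CPM + 0.01 on a log axis that differs between panels, by group, with the marker shape giving the replicate and the bar the group mean. CHGA steps down to 12.7 to 28.7 CPM in S2D30, SCG5 and PCSK1 step up in stage 2 with replicate 4 of S2D4 below the rest, and CHGA and PCSK1N lie at or near 0 counts in GIMEN.

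Chromogranin A, the major granin of chromaffin cells, had the highest level per length of the 10 genes in untreated SK-N-AS and the largest S2D30 fall among the 8 tested. The untreated replicates had 3252, 2981, 8102 and 6679 CPM of CHGA and the S1D4 replicates 3910, 3916, 6111 and 5721 CPM. These 2 groups overlapped, and the S1D4 change did not pass the test (log2 fold change -0.12, SE 0.56, adjusted p = 0.89). Within replicates 1 and 2 the S1D4 mean was 1.26-fold the untreated mean, and within replicates 3 and 4 it was 0.801-fold. In S2D4, replicates 1 to 3 had 483, 574 and 584 CPM but replicate 4 had 3933 CPM, inside the S1D4 range. The log2 fold change of S2D4 against untreated cells was -1.95 with all 4 replicates (SE 0.58, adjusted p = 0.00746) and -3.30 without replicate 4 (SE 0.36, adjusted p = 5.47e-07). Against S1D4 it was -1.83 (SE 0.58, adjusted p = 0.0127) with it and -3.18 without it.

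By 30 days of stage 2, CHGA was at 17.8, 28.7, 26.8 and 12.7 CPM, below every earlier SK-N-AS library. The change against untreated cells was -7.97 on the log2 scale (SE 0.76, adjusted p = 7.61e-08), and against S2D4 it was -6.02 (SE 0.70, adjusted p = 2.42e-06), or -4.68 without S2D4 replicate 4. CHGA was first among the 10 genes per length in untreated SK-N-AS, and VGF was first in S2D30. Per kilobase of exon (GENCODE v29 exon lengths, since the annotation behind the counts is not given in the sources used here), CHGA stood at 1694 ± 818 CPM per kb and VGF at 79.0 ± 24.8 CPM per kb in untreated cells. In S2D30 the same levels were 6.93 ± 2.44 and 14051 ± 845 CPM per kb. CHGA made up 77.8% to 88.9% of the summed counts of the 10 genes in untreated SK-N-AS and 0.0354% to 0.0726% in S2D30, where VGF made up 98.8% to 99.0%.

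In GIMEN, CHGA had 2 counts in 1 untreated library and 0 counts in the other 5 libraries. Untreated SK-N-AS was above untreated GIMEN by a ratio of 150888, with a counting interval of 41770 to 1245932 (95%, Poisson, counting error only). A treated-cell change of CHGA in GIMEN was not detectable at this depth.

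Chromogranin B and secretogranin II, 2 granins abundant enough to be followed in both lines, differed from CHGA in S2D4. CHGB had 94.1, 110, 217 and 250 CPM in untreated SK-N-AS, again lower in replicates 1 and 2 than in 3 and 4, and 104 to 136 CPM in S1D4 (log2 fold change -0.48, SE 0.27, adjusted p = 0.173). Within replicates 1 and 2 the S1D4 mean was 1.08-fold the untreated one, and within 3 and 4 it was 0.578-fold. S2D4 had 159, 170, 166 and 306 CPM, of which replicate 4 was the highest, and was not separated from untreated cells (0.22, SE 0.27, adjusted p = 0.481). The rise of CHGB from S1D4 to S2D4 (0.70, SE 0.27, adjusted p = 0.0359) was lost without S2D4 replicate 4 (0.42, adjusted p = 0.151) and also without S1D4 replicate 1 or 2 (adjusted p = 0.0765 and 0.0914). All 4 S2D30 libraries, at 47.2, 60.0, 53.5 and 45.3 CPM, lay below every other SK-N-AS library, a fall of 1.74 against untreated cells (log2 fold change -1.74, SE 0.28, adjusted p = 2.82e-05).

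Secretogranin II, the precursor of secretoneurin, rose in steps and then fell below its starting level. Its untreated replicates had 342, 292, 378 and 324 CPM and its S1D4 replicates 612, 541, 745 and 738 CPM, with no overlap (log2 fold change 0.96, SE 0.12, adjusted p = 8.41e-06). The ratio was 1.82-fold within replicates 1 and 2 and 2.11-fold within 3 and 4. S2D4 reached 1892, 1926, 1871 and 2157 CPM (2.52 against untreated cells, SE 0.12, adjusted p = 4.47e-11), and here replicate 4 was the highest. S2D30 then had 94.5, 111, 104 and 88.3 CPM, a change of -4.30 from S2D4 (SE 0.13, adjusted p = 2.2e-12) and of -1.79 from untreated cells (SE 0.12, adjusted p = 8.23e-10). SCG2 and SCG3 were the members called higher in S2D4 and lower in S2D30 than in untreated cells.

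Secretogranin III, which binds chromogranin A and vesicle membrane cholesterol, followed the same course at a lower level. It had 18.9, 16.4, 13.3 and 12.6 CPM untreated and 41.6, 35.3, 26.3 and 25.8 CPM in S1D4 (log2 fold change 1.04, SE 0.26, adjusted p = 0.00394), and the within-replicate ratios were 2.17-fold and 2.01-fold. In S2D4 it had 70.2, 65.8, 58.2 and 27.1 CPM, the last in replicate 4, and stood above untreated cells by 1.81 (SE 0.26, adjusted p = 1.33e-05). Its further rise from S1D4 to S2D4 (0.77, SE 0.25, adjusted p = 0.0162) was larger without S2D4 replicate 4 (1.00) and lost its call without S1D4 replicate 4 (adjusted p = 0.0512) or S2D4 replicate 1 (adjusted p = 0.057). At 30 days it was at 3.69, 5.94, 3.90 and 3.56 CPM, a change of -1.89 from untreated cells (SE 0.28, adjusted p = 1.25e-05) and of -3.70 from S2D4 (SE 0.29, adjusted p = 2.92e-08).

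SCG5 and PCSK1 were the 2 members besides VGF that ended far above their untreated level in SK-N-AS. SCG5, the 7B2 chaperone gene, had 14 to 40 counts in the untreated libraries (0.99, 1.62, 0.67 and 0.73 CPM) and 14 to 23 counts in S1D4 (log2 fold change -0.29, SE 0.65, adjusted p = 0.759). S2D4 replicates 1 to 3 had 14.5, 14.9 and 12.2 CPM, and replicate 4 had 1.30 CPM, inside the untreated range. The S2D4 rise was 3.38 (SE 0.52, adjusted p = 3.07e-05) with replicate 4 and 3.77 (SE 0.20, adjusted p = 7.78e-11) without it. The S2D30 replicates had 102, 108, 128 and 92.5 CPM, above every other library of the series, and a log2 fold change of 6.72 from untreated cells (SE 0.55, adjusted p = 1.21e-08) and of 3.34 from S2D4 (SE 0.45, adjusted p = 1.12e-05). SCG5 was the only member called higher between 4 and 30 days of stage 2.

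PCSK1, the convertase that begins the cutting of many prohormones, was barely detected in untreated SK-N-AS, with 10, 10, 2 and 2 counts. It had 38, 25, 21 and 23 counts in S1D4, a rise of 2.43 on the log2 scale (SE 0.67, adjusted p = 0.0084). The ratio of mean levels was 3.95-fold within replicates 1 and 2 and 12.2-fold within replicates 3 and 4, the latter resting on 2 counts in each untreated library. S2D4 replicates 1 to 3 had 50.2, 47.2 and 50.4 CPM and replicate 4 had 9.27 CPM, all above every S1D4 library, and the rise from untreated cells was 7.50 (SE 0.56, adjusted p = 7.8e-09), or 7.84 without replicate 4. S2D30 was at 41.5, 46.2, 39.5 and 34.4 CPM and did not differ from S2D4 by the test (0.04, SE 0.36, adjusted p = 0.935; without S2D4 replicate 4, -0.29, SE 0.16, adjusted p = 0.142). Against untreated cells the 30-day rise was 7.55 (SE 0.56, adjusted p = 3.66e-09). S2D4 replicates 1 to 3 lay above every S2D30 library and replicate 4 below every one, so the groups' levels are not shown to be equal.

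PCSK2, the partner convertase, stayed near the floor. It had 0 to 6 counts in the SK-N-AS libraries and 1 to 7 in the GIMEN libraries, with group means of 0.0648 to 0.201 CPM, and no 2 neighbouring groups were separated. SCG5 was read at up to 128 CPM in libraries with at most 6 counts of PCSK2.

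PCSK1N, the proSAAS gene, moved least among the members abundant in SK-N-AS. Its group means were 65.1 ± 13.5 CPM untreated, 91.0 ± 17.7 in S1D4, 62.3 ± 6.99 in S2D4 and 49.7 ± 11.2 in S2D30 (SD, n = 4). The S1D4 libraries (73.7 to 112 CPM) lay above those of S2D4 (57.7 to 72.5 CPM), and both of these ranges overlapped that of untreated cells. The S1D4 change (0.46, SE 0.18) had an adjusted p of 0.0506, just outside the threshold of 0.05. The replicate block (adjusted p = 0.0495), a term for replicates 3 and 4 of untreated and S1D4 cells (0.0483), DESeq2 (0.0336) and 5 other alternatives called it higher, as did leaving out untreated replicate 1 or 3 or S1D4 replicate 4 (0.0457, 0.0276 and 0.0336). The change was 1.60-fold within replicates 1 and 2 and 1.19-fold within 3 and 4. The S2D30 fall (-0.43, SE 0.18, adjusted p = 0.0414) passed it, but was lost without untreated replicate 1 or 3 or S2D30 replicate 1 or 4 (adjusted p = 0.121, 0.14, 0.123 and 0.134). It was also lost with DESeq2, its size factors, VGF left out of library sizes, no filter and the compared groups alone (adjusted p 0.0519 to 0.0624). The fall from S1D4 to S2D4 (-0.56, SE 0.18, adjusted p = 0.0141) was lost without S1D4 replicate 1 (adjusted p = 0.0574). Per kilobase of exon, PCSK1 was at 0.0396 ± 0.0323 and PCSK1N at 47.7 ± 9.87 CPM per kb in untreated cells, and in S2D30 they were at 7.61 ± 0.925 and 36.4 ± 8.23 CPM per kb. In GIMEN, PCSK1N had 1 count in 1 untreated library and 0 in the other 5, so that untreated SK-N-AS was above it by a ratio of 3737 (counting interval 671 to 147622).

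CPE, which trims the cut peptides, fell in SK-N-AS in stage 2. The untreated replicates had 119, 105, 135 and 144 CPM and the S1D4 replicates 114, 105, 93.2 and 84.9 CPM, groups that overlapped (log2 fold change -0.37, SE 0.16, adjusted p = 0.0834). The S1D4 mean was 0.977-fold the untreated one within replicates 1 and 2 and 0.639-fold within replicates 3 and 4. S2D4 had 42.3, 42.7 and 40.2 CPM in replicates 1 to 3 and 73.8 CPM in replicate 4, for a fall of 1.37 (log2 fold change -1.37, SE 0.16, adjusted p = 1.97e-06), or -1.62 without replicate 4. S2D30, at 38.5, 42.5, 39.2 and 41.1 CPM, was not called different from S2D4 (-0.31, SE 0.16, adjusted p = 0.13), and the change without S2D4 replicate 4 was -0.06. From untreated cells the 30-day change was -1.68 (SE 0.17, adjusted p = 1.26e-07).

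S2D4 replicate 4 was higher than its group in CHGA, CHGB and CPE and lower in SCG3, SCG5 and PCSK1. Its level lay between the S1D4 mean and the rest of its group for CHGA, SCG5, PCSK1 and CPE, and inside the S1D4 range for SCG3. VGF had 58844 CPM there against 62614 to 66243 CPM, SCG2 2157 against 1871 to 1926 CPM, and PCSK1N 72.5 against 57.7 to 61.0 CPM. For these genes replicate 4 also lay outside the range of the other replicates, by a smaller ratio than for the genes above. Leaving it out changed 1 member call among the S2D4 comparisons, that of CHGB against S1D4.

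**Figure D3:**
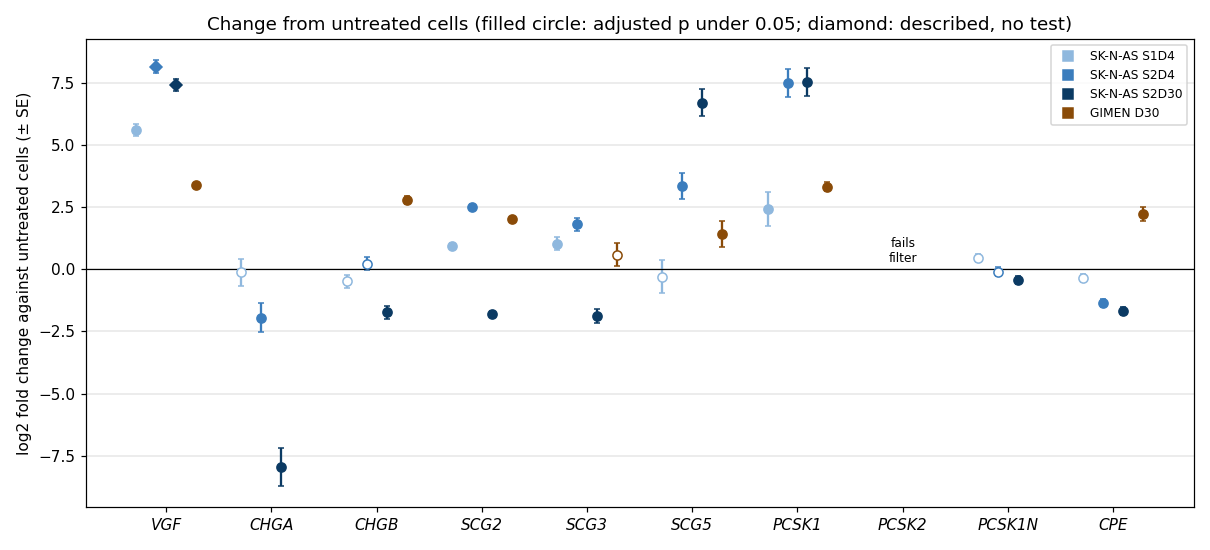
Log2 fold change against untreated cells of the same line (± SE of the edgeR fit) for each gene in S1D4, S2D4 and S2D30 of SK-N-AS and D30 of GIMEN. Filled circles have an adjusted p under 0.05, open circles do not, and diamonds are the VGF changes given without a test; CHGB, SCG2 and CPE of S2D30 lie below 0 and those of GIMEN above it.

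In GIMEN the members called were all higher after treatment, and SCG3 did not pass the test. CHGB went from 21.7, 22.1 and 21.0 CPM to 111, 170 and 174 CPM (log2 fold change 2.79, SE 0.16, adjusted p = 2.83e-08). SCG2 went from 268, 255 and 261 CPM to 1123, 1053 and 1108 CPM (2.04, SE 0.06, adjusted p = 2.56e-10). PCSK1 went from 21, 24 and 15 counts to 200, 160 and 163 counts (3.34, SE 0.19, adjusted p = 3.2e-08), and no library of one group overlapped the other for these 3 genes. CPE, at 2.79, 2.75 and 2.83 CPM before treatment, reached 7.40, 15.9 and 16.7 CPM (2.23, SE 0.28, adjusted p = 2.65e-05). D30 replicate 1 was the lowest of its group for CHGB and CPE and the highest for VGF, SCG3 and SCG5. SCG5, with 9, 4 and 11 counts before and 33, 12 and 12 counts after treatment, was called higher (1.43, SE 0.52, adjusted p = 0.0282), and the call was lost without D30 replicate 1 (0.84, adjusted p = 0.192) or untreated replicate 1 or 2 (adjusted p = 0.0667 and 0.122), and with DESeq2 (adjusted p = 0.0649). SCG3 had 6 to 15 counts before and 9 to 21 after, and did not pass the test (0.59, SE 0.46, adjusted p = 0.27).

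Before treatment the lines differed in most members. Of 9 tested, 7 were higher in untreated SK-N-AS (CHGA, CHGB, SCG2, SCG3, SCG5, PCSK1N and CPE) and 1, PCSK1, was higher in untreated GIMEN, where 38.6% and 35.3% of 16246 genes were. The log2 difference was 5.48 for CPE (SE 0.24, adjusted p = 1.66e-12), 4.86 for SCG3 (SE 0.32, adjusted p = 4.86e-10) and 2.93 for CHGB (SE 0.29, adjusted p = 9.23e-08), but 0.34 for SCG2 (SE 0.10, adjusted p = 0.0057). PCSK1 differed by -2.33 (SE 0.37, adjusted p = 2.84e-05). SCG5 differed by 1.21 (SE 0.45, adjusted p = 0.022), a call that was lost without SK-N-AS untreated replicate 2 (adjusted p = 0.0601) or GIMEN untreated replicate 2 (adjusted p = 0.131). Line and growth medium cannot be told apart here.

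The 30-day change itself differed between the lines for each of the 6 members in which that could be tested. It was lower in SK-N-AS for CHGB (difference of log2 fold changes -4.54, SE 0.39, adjusted p = 6.57e-08), SCG2 (-3.84, SE 0.14, adjusted p = 4.35e-12), CPE (-3.92, SE 0.29, adjusted p = 1.35e-08) and SCG3 (-2.50, SE 0.49, adjusted p = 0.000437). It was higher in SK-N-AS for SCG5 (5.26, SE 0.70, adjusted p = 9.99e-06) and PCSK1 (4.19, SE 0.41, adjusted p = 3.73e-07). Of all 16246 genes tested for this difference, 24.5% were higher and 25.2% lower. CHGB, SCG2 and CPE fell in SK-N-AS and rose in GIMEN, whereas PCSK1 and SCG5 rose in both, more so in SK-N-AS. Untreated SK-N-AS had only 2 to 10 counts of PCSK1 a library (mean 0.210 CPM, beside 1.04 CPM in GIMEN). The 30-day means of PCSK1 were 40.4 CPM in SK-N-AS and 10.8 CPM in GIMEN. The SCG5 rise in GIMEN lost its call under some alternatives, as given above. CHGA and PCSK1N were at the floor in both GIMEN groups and could not be compared. Doses, media and the preceding stage 1 differ between the 2 protocols and cannot be told apart from the line.

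**Figure D4:**
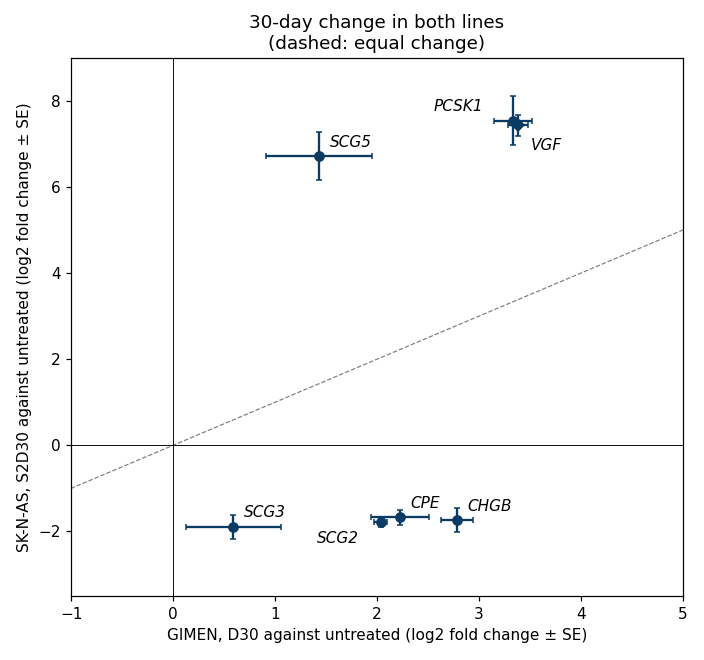
Log2 fold change after 30 days in GIMEN (horizontal axis) and in SK-N-AS (vertical axis), each ± SE, for the 7 genes with a value in both lines; the dashed line marks equal change and VGF, a diamond, has no test in SK-N-AS. VGF, PCSK1 and SCG5 lie above the line and CHGB, SCG2, CPE and SCG3 below 0 in SK-N-AS.

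The summed share of the 10 genes was 0.679% ± 0.295 of counts in the untreated SK-N-AS group (SD, n = 4). It was 1.86% ± 0.307 at S1D4, 6.45% ± 0.401 at S2D4 and 3.82% ± 0.132 at S2D30. Without VGF, the remaining 9 genes held 0.656% ± 0.301, 0.665% ± 0.145, 0.357% ± 0.157 and 0.0412% ± 0.0041. The total thus went up with VGF while the sum of the rest was at its lowest in S2D30. In GIMEN the 9 genes held 0.0253% ± 0.000649 before and 0.117% ± 0.00622 after treatment (n = 3), with SCG2 as the main part.

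Across the 22 libraries, PCSK1 was the member most like VGF (Pearson r of log2 CPM 0.827, place 321 among 10293 genes with a mean of at least 10 CPM), followed by SCG5 (0.695). The other members with a value had r between 0.202 and 0.452. Within a line the values differed: over the 16 SK-N-AS libraries r was 0.893 for PCSK1, 0.613 for SCG5, -0.828 for CPE, -0.564 for CHGA and -0.268 for CHGB. Over the 6 GIMEN libraries, which form 2 groups, it was 0.998 for SCG2, 0.996 for PCSK1, 0.977 for CHGB and 0.919 for CPE. The 5 genes most like VGF were IL4R, a cytokine receptor subunit (0.969), NAT16, of the acetyltransferase superfamily (0.968), VIMP, a selenoprotein of the endoplasmic reticulum (0.964), SLCO4A1, an organic anion transporter (0.962), and GPR107, a membrane protein of the Golgi (0.957). NAT16 went from a mean of 0.24 CPM untreated to 10.5, 51.5 and 78.2 CPM in S1D4, S2D4 and S2D30 of SK-N-AS and from 0.33 to 11.1 CPM in GIMEN. IL4R went from 43.4 to 121, 162 and 204 CPM and from 45.2 to 96.8 CPM. The libraries share groups and treatment, so these values describe the groups' order and carry no test. None of the 5 was among the 5 highest by Spearman's rank correlation.

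NAT16 is the next protein-coding gene to VGF on chromosome 7 in RefSeq (GRCh38.p14). Its counts were 0.0759% to 0.215% of those of VGF in the S1D4, S2D4 and S2D30 libraries and 0.368% to 0.545% in GIMEN D30, with 144 to 1872 counts a library. In untreated cells it had 1 to 11 counts. NAT16 was called higher in S1D4 (log2 fold change 5.40, SE 0.25, adjusted p = 6.02e-10) and in GIMEN D30 (5.01, SE 0.28, adjusted p = 3.08e-08), beside 5.61 and 3.39 for VGF. The next gene on the other side, AP1S1, an adaptor protein subunit, had group means of 82.8, 86.0, 85.8 and 122 CPM along the SK-N-AS groups and did not pass the test in S1D4 (0.03, SE 0.11, adjusted p = 0.87). In GIMEN it rose from 191 to 269 CPM (0.47, SE 0.06, adjusted p = 2.32e-05). Whether reads from VGF or from transcription past its ends were counted for NAT16 was not tested.

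The 4 lists of related genes give the surroundings of the 10. They were written from general knowledge, but with earlier results of these data known. Their shares are descriptions with no set test. Of 19 tested peptide-processing enzymes, 8 rose and 2 fell in S1D4, 6 rose and 6 fell in S2D4, 10 rose and 5 fell in S2D30, and 12 rose and 4 fell in GIMEN. The shares in S1D4 were 42.1% and 10.5%, beside 17.6% and 22.4% of all genes. With a fold of at least 2, 1 of the 19 rose there and 0 fell, beside 953 and 989 of 15810 genes. In S2D4 they were 31.6% each, near the 30.9% and 32.2% of all genes. The shares in S2D30 were 52.6% and 26.3%, beside 33.8% and 36.5% of all genes, and in GIMEN 63.2% and 21.1%, beside 35.5% and 36%. Their median log2 fold change was 0.385 in S2D30, against -0.03 for all genes, and 0.56 in GIMEN, against 0.02. MME, the peptide-degrading neprilysin, rose from 1.27 ± 1.31 to 172 ± 35.6 CPM in S2D30 (n = 4) and from 22.5 ± 0.955 to 357 ± 135 CPM in GIMEN (n = 3). The cysteine protease CTSL rose from 30.4 ± 5.93 to 324 ± 33.2 CPM in S2D30. CPXM1, of the carboxypeptidase family to which CPE belongs, fell in both lines, from 40.5 to 1.17 CPM and from 15.8 to 6.61 CPM, and the prolyl endopeptidase PREP fell in S2D30 from 67.9 to 20.9 CPM. In GIMEN the convertase PCSK5 was called higher at 6.11 to 40.9 CPM against 2.01 to 2.09 CPM, with its treated libraries far apart, and carboxypeptidase M (CPM, the gene) fell from 1.35 to 0.562 on the CPM scale.

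Of the dense-core vesicle machinery in S1D4, 18 of 44 tested genes were higher (40.9%) and 2 lower (4.55%), beside 17.6% and 22.4% of all genes and a median of 0.25 against -0.01. Counts of 20 higher (45.5%) and 11 lower (25%) followed in S2D4, beside 30.9% and 32.2% of all genes. S2D30 had 21 higher (47.7%), beside 33.8%, and 16 lower (36.4%), near the 36.5% of all genes, with a median of 0.08. GIMEN had 14 higher (40%) and 8 lower (22.9%) of 35, beside 35.5% and 36%, with a median of 0.08. PTPRN, a transmembrane protein of the dense-core vesicle, rose from 24.2 ± 9.05 to 3651 ± 35.2 CPM in S2D30 (log2 fold change 7.20, SE 0.27, adjusted p = 1e-12) and from 217 ± 7.33 to 1748 ± 261 CPM in GIMEN (2.99, SE 0.10, adjusted p = 5.52e-10). CADPS, a priming factor of vesicle release, rose from 0.135 to 2.54 CPM in S2D30, and SYTL4, a RAB27 effector on granules, from 3.75 to 27.5 CPM in GIMEN. DOC2B, a calcium sensor of release, and ICA1, a protein of granule formation, fell in S2D30 from 14.3 to 1.32 CPM and from 49.7 to 6.89 CPM. In GIMEN the active-zone gene RIMS2 fell from 81.0 to 27.9 CPM and TSSC1, the table's older name for EIPR1, from 35.5 to 17.5 CPM.

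Of 26 tested peptide precursors other than the members, 9 rose (34.6%) and 5 fell (19.2%) in S1D4, beside 17.6% and 22.4% of all genes. In S2D4, 14 rose (53.8%) and 3 fell (11.5%), beside 30.9% and 32.2% of all genes. The counts of 9 and 9 in S2D30 (34.6% each) were near the shares of all genes, 33.8% and 36.5%. In GIMEN 3 rose and 6 fell of 10 (30% and 60%), beside 35.5% and 36% of all genes. Medians were 0.49, 0.90, -0.09 and -0.60 in these 4 comparisons, against -0.01, -0.02, -0.03 and 0.02 for all genes. STC1, the glycoprotein hormone stanniocalcin 1, rose from 3.003 ± 1.25 to 2792 ± 336 CPM in S2D30 (log2 fold change 9.81, SE 0.39, adjusted p = 2.1e-12) and from 87.7 ± 3.68 to 2736 ± 376 CPM in GIMEN (4.94, SE 0.11, adjusted p = 1.82e-11). CCK, the cholecystokinin precursor, had 1 count in all untreated SK-N-AS libraries together and 3.12 ± 0.472 CPM in S2D30, a ratio of 365 with a counting interval of 65.5 to 14407. CRH, the corticotropin-releasing hormone gene, fell from 374 ± 123 to 5.82 ± 2.08 CPM in S2D30. In GIMEN, CRH went from 1.30 ± 0.238 CPM to 0 counts in all 3 libraries, at least 6.97-fold lower against a floor of 3 counts per library. NPPC, the C-type natriuretic peptide gene, fell in S2D30 from 4.05 to 0.229 CPM, EDN1, the endothelin 1 gene, fell in GIMEN from 6.66 to 0.227 CPM, and the urocortin gene UCN rose there from 3.82 to 10.9 CPM.

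Among 29 transcription regulators of neuroendocrine genes, 6 rose (20.7%) and 12 fell (41.4%) in S1D4, beside 17.6% and 22.4% of all genes. In S2D4, 12 rose (41.4%) and 13 fell (44.8%), beside 30.9% and 32.2%. The 10 that rose in S2D30 (34.5%) were near the 33.8% of all genes, and 13 fell (44.8%), beside 36.5%. Of 22 tested in GIMEN, 12 rose (54.5%) and 6 fell (27.3%), beside 35.5% and 36%. Medians were -0.28, -0.09, -0.01 and 0.30 in these 4 comparisons, against -0.01, -0.02, -0.03 and 0.02 for all genes. The orphan nuclear receptors NR4A2 and NR4A3, immediate-early genes, rose in S2D30 from 2.05 to 190 CPM and from 0.634 to 70.1 CPM. In GIMEN they rose from 22.1 to 274 CPM and from 1.24 to 11.2 CPM. INSM2, a zinc finger gene of neuroendocrine cells, fell in S2D30 from 64.5 ± 5.67 to 0.323 ± 0.105 CPM. In GIMEN, RCOR2, a corepressor partner of REST, fell from 5.88 to 2.07 CPM and HAND2, a sympathoadrenal factor, from 363 to 179 CPM. Whether counting used the strand is not given in the sources used here, and the exons of CCK, HAND2 and SYTL4 overlap genes on the other strand over 33.2%, 24.1% and 17.5% of their length, so those reads cannot be told apart. For IL4R and SLCO4A1 this overlap was 5.75% and 8.54%. The exons of 9 members overlapped no other gene in GENCODE v29, and those of SCG5 did so over 0.501%.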

How the data were processed

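RNA was measured in 22 libraries by paired-end sequencing on an Illumina HiSeq X, per the labels' protocols. Raw counts for each gene symbol make up the deposited table, and the authors' aligner, counter, genome build, annotation and strand setting are not given in the sources used here. Whole-number values and unequal totals (16456484 to 37506800) were checked. Groups, doses and days come from the labels. The 10 members, the 4 gene lists and the marker lists were chosen with earlier results of these data known.

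Counts were tested in R 4.3.3 with edgeR 4.0.16 (glmQLFit, glmQLFTest, TMM scaling). filterByExpr used a minimum count of 10 and a total of 15. The models held the 16 SK-N-AS libraries (15810 genes), the 6 GIMEN libraries (13517 genes) and the 14 untreated and 30-day libraries of both lines (16246 genes, with an interaction for the line difference). P-values were adjusted by Benjamini-Hochberg over every gene in the model, and the threshold was 0.05. The code was tested on simulated data. Beyond the members, up to 2 called genes with the largest rises and falls in each list (at least 1 CPM in a group), in S2D30 and in GIMEN, were named, as were the 5 genes most correlated with VGF (log2 CPM, prior count 2). Of these, 1 gene is not reported here. The NAT16 and AP1S1 comparison and the REST and CREB motifs were chosen after values were seen. Same-numbered libraries did not all deviate together (in S1D4 and untreated cells, r = 0.274, 0.266, 0.0436 and 0.293), so no pairing was used. The highest r with an untreated library of another number was 0.187, 0.155, 0.286 and 0.0632. Replicates 1, 2 and 4 were thus closest to their own number and replicate 3 was not. Alternatives were DESeq2 1.42.0, other scalings, VGF left out of library sizes, no filter, the compared groups alone, a fold of at least 2, a replicate block, leaving out each library and, chosen after seeing the data, a term for replicates 3 and 4. Intervals and floors (3 counts) cover counting error only, since reads carried no molecular identifiers.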

Additional observations from a re-analysis of the deposited data

Results flagged for a closer look

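Of 40 groups of 4 libraries checked over the 10 genes, 5 held a library far from the other 3, where chance gives about 1 in 20. The S2D4 group accounted for 4 of them, each through replicate 4: CHGA at 3933 CPM against 483 to 584 CPM, CHGB at 306 CPM against 159 to 170 CPM, PCSK1 at 9.27 CPM against 47.2 to 50.4 CPM, and CPE at 73.8 CPM against 40.2 to 42.7 CPM. The remaining one was SCG3 in S2D30, where replicate 2 had 5.94 CPM against 3.56 to 3.90 CPM.

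The 30-day change differed between SK-N-AS and GIMEN by the interaction test (edgeR, adjusted p under the threshold) for 6 genes. The differences of log2 fold changes, SK-N-AS minus GIMEN, were -4.54 for CHGB, -3.84 for SCG2, -2.50 for SCG3, 5.26 for SCG5, 4.19 for PCSK1 and -3.92 for CPE. Doses, media and the preceding stage differ between the lines' protocols and cannot be told apart from the line.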

How the results depend on the processing

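Of the members' log2 fold changes under alternatives other than leaving out a library, 474 were unchanged, 9 gained a call and 7 lost one. A tested change was unchanged if it kept its direction and side of the threshold. The VGF changes given without a test were unchanged if they kept their direction and shifted by less than the SE. PCSK1N in S1D4 gained its call under each of 8 such alternatives (adjusted p 0.0336 to 0.0495), and PCSK1N in S2D30 lost it under 5 (0.0519 to 0.0624). CHGB in S2D4 against S1D4 lost its call under upper-quartile scaling (0.0594), SCG5 in GIMEN with DESeq2 (0.0649), and CPE in S1D4 gained one with the compared groups alone (-0.33, 0.047). The replicate block gave 5 members called in S1D4 against 4 without it, since PCSK1N then passed (0.46, adjusted p = 0.0495), and changed no other call among 59 member values. These alternatives varied the processing, and the cause of a change was not tested. With a fold of at least 2, 5 members were called in S2D4 against S1D4 in place of 8. VGF's share in untreated GIMEN was 0.0217%, or 0.0246% with the TMM-scaled library size. Leaving out 1 library at a time turned the direction of 4 changes, none of them called: CHGA in S1D4 ranged from -0.31 to 0.18, CHGB in S2D4 against untreated cells from -0.0537 to 0.483, PCSK1N there from -0.209 to 0.0122, and PCSK1 in S2D30 against S2D4 from -0.29 to 0.19.

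Counts over all genes fell by more than 1.5 times only with a fold of at least 2. Higher and lower, they were then 953 and 989 in S1D4 (2786 and 3546 without the fold), 2096 and 2481 in S2D4 (4879 and 5097), 2807 and 3038 in S2D30 (5336 and 5771), 1406 and 2019 in S2D4 against S1D4 (4470 and 4242), 1603 and 1506 in S2D30 against S2D4 (3863 and 4248), 1599 and 1738 in GIMEN (4792 and 4861), 3845 and 3008 between the untreated lines (6271 and 5738), and 1970 and 2265 for the line difference (3977 and 4092). With that fold the rising vesicle genes were 8 in S1D4, 12 in S2D4 and 8 in GIMEN, the falling ones 5 in S2D4 and 10 in S2D30, and the rising enzymes 1 in S1D4, 6 in S2D30 and 6 in GIMEN. In SK-N-AS 44 vesicle genes, 19 enzymes, 26 precursors and 29 regulators were tested, beside 15810 genes. In GIMEN these were 35, 19, 10 and 22, beside 13517 genes. The S1D4 rises were thus 8 of 44 vesicle genes and 1 of 19 enzymes, beside 953 of 15810 genes. The other list counts that moved by more than 1.5 times fell as well: in S1D4, falling precursors (5) to 3 and falling regulators (12) to 3, in S2D4, rising regulators (12) to 7 and falling enzymes (6) to 3, and in GIMEN, falling vesicle genes (8) to 3, rising and falling regulators (12 and 6) to 6 and 2 and falling enzymes (4) to 2. The 2 falling vesicle genes and 2 falling enzymes of S1D4 became 0. Other alternatives moved a list count that far in S1D4 with the compared groups alone (falling precursors 2, vesicle genes 1), for S1D4's falling enzymes under 4 alternatives (1 each), and in S2D4 for falling vesicle genes without the filter (7) and falling enzymes with the compared groups alone (3). Members with few counts (SCG5 in GIMEN, PCSK1 in untreated SK-N-AS, PCSK2) are limited by depth.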
